A study of Mus musculus with 10 samples.

Results

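The myogenic regulatory factors and the MEF2 genes were followed in the tibialis anterior (TA), a fast muscle of the lower leg, of mice with and without a Lewis Lung Carcinoma (LLC) tumor. The set held 10 genes chosen by name: the 4 myogenic regulatory factors Myod1, Myog, Myf5 and Myf6, the satellite cell factor Pax7, the MEF2 genes Mef2a, Mef2c and Mef2d, and the regulators Dach2 and Hdac4. These were 10 of the 39179 gene identifiers in the count files, and all 10 were among the 12690 genes with enough counts to be tested. The mice of the LLC group (n = 6) received cells of this mouse lung cancer line under the skin of both flanks, a model of cachexia, the wasting of muscle and body weight in cancer. The control group (n = 4) received buffer, and each library came from 1 mouse. The sample labels give the strain of both groups as C57BL/6J, the age at injection as 10 weeks and the tumor period as 23 days (0 days for controls), whereas the series text gives C57BL/10 males of 8 weeks studied after 22 days. The methods describe the sequenced LLC mice both as picked at random and as those that lived through the whole period, so animals that died earlier are not represented.

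Muscle fibres are built and repaired from satellite cells, stem cells marked by the paired-box factor PAX7. Once activated, these cells turn on the helix-loop-helix factors MYF5 and MYOD1, which commit them to the muscle lineage, then myogenin (MYOG), which drives differentiation, while MYF6 (MRF4) is the member of the family best known from mature fibres. MEF2 proteins bind beside these factors at muscle genes, class IIa histone deacetylases such as HDAC4 hold MEF2 in check, and in denervated muscle HDAC4 is known to repress Dach2, itself a repressor of Myog.

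Expression changed in opposite directions within the set. Myog rose 2.29-fold in LLC muscle, Pax7 fell to 0.496 and Myf5 to 0.52 of the control level, and the other 7 genes did not pass the threshold. The threshold was an adjusted p of 0.05 or less in edgeR's quasi-likelihood test (Benjamini-Hochberg over all 12690 genes) with a change of at least 1.5-fold. Thus 3 of 10 genes passed, 1 higher and 2 lower, where 5.63% of all tested genes passed, 1.65% higher and 3.99% lower. The groups did not overlap for 2 of the 10, Myog and Pax7, and for 16.0% of all tested genes. At an unadjusted p under 0.05, with no bound on the fold change, 5 of the 10 genes and 27.4% of all tested genes passed. The latter is the share to set beside such counts for the lists below. The median log2 fold change was -0.11 over the 10 genes and 0.002 over all tested genes.

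Libraries held 16693209 to 21303084 counts, so that 3 counts, taken as the smallest detectable level, equal 0.141 to 0.180 CPM (counts scaled to a common library total). Mitochondrially encoded genes took 28.4% to 30.7% of the counts in controls and 22.0% to 27.9% in LLC samples, with the lowest shares in LLC 1 and LLC 5. The 7 fibre markers summed to 112000 to 118800 CPM in controls and 73730 to 121100 CPM in LLC samples. LLC 1 stood apart from the other LLC samples for several of the genes below. Values without it are given for the 10 genes and for some of the list genes. Levels below are CPM scaled by TMM, a correction for library composition, and changes are LLC minus control on the log2 scale. The CPM given above for 3 counts was computed from library totals without this correction.

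The sequences just upstream of the start site are shown for Myog and Myf5, which moved in opposite directions, and for Mef2c and Dach2, whose windows hold letters of both motifs searched. RefSeq promoter entries (GRCm38.p6) matched 8 of the 10 genes, the others being Myod1 and Myf6. Each window runs from 250 to 16 bases before the RefSeq start, 5′ to 3′ on the strand of the gene. Capitals mark the E-box CANNTG, bound by the myogenic regulatory factors, and the MEF2 core TANNNNTA with only A or T in the middle; both patterns read alike on either strand, and no match overlapped another.
Myog (chr1:134289754-134289988, plus strand): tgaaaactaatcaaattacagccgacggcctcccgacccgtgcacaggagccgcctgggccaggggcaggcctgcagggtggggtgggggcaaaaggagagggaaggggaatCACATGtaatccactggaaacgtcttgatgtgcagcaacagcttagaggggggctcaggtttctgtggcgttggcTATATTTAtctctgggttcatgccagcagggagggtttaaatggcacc
Myf5 (chr10:107486150-107486384, minus strand): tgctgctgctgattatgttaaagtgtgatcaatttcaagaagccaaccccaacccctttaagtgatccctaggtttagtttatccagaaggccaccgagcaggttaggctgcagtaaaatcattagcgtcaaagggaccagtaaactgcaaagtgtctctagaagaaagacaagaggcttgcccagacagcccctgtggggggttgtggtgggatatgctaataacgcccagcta
Mef2c (chr13:83503784-83504018, plus strand): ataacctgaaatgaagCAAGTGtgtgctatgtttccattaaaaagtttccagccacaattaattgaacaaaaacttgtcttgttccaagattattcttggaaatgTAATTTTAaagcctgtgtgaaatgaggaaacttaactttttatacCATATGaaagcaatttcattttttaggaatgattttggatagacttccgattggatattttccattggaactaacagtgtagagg
Dach2 (chrX:113297260-113297494, plus strand): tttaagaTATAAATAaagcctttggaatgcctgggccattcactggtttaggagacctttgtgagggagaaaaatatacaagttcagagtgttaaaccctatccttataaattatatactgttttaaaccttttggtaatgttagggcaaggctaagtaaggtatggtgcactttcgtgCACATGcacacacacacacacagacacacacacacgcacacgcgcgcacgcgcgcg
The Myog window held 1 E-box, CACATG, 138 to 133 bases before the start and 1 MEF2 core, TATATTTA, 63 to 56 bases before it. The Myf5 window held neither motif. The first of the 3 Mef2c windows held 2 E-boxes and 1 core, and the first of the 2 Dach2 windows held 1 of each. Among all 32851 promoter entries, 64.1% held an E-box, 8.29% a MEF2 core and 5.51% both. Such matches describe letters in these windows and do not show binding.

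**Figure D1:**
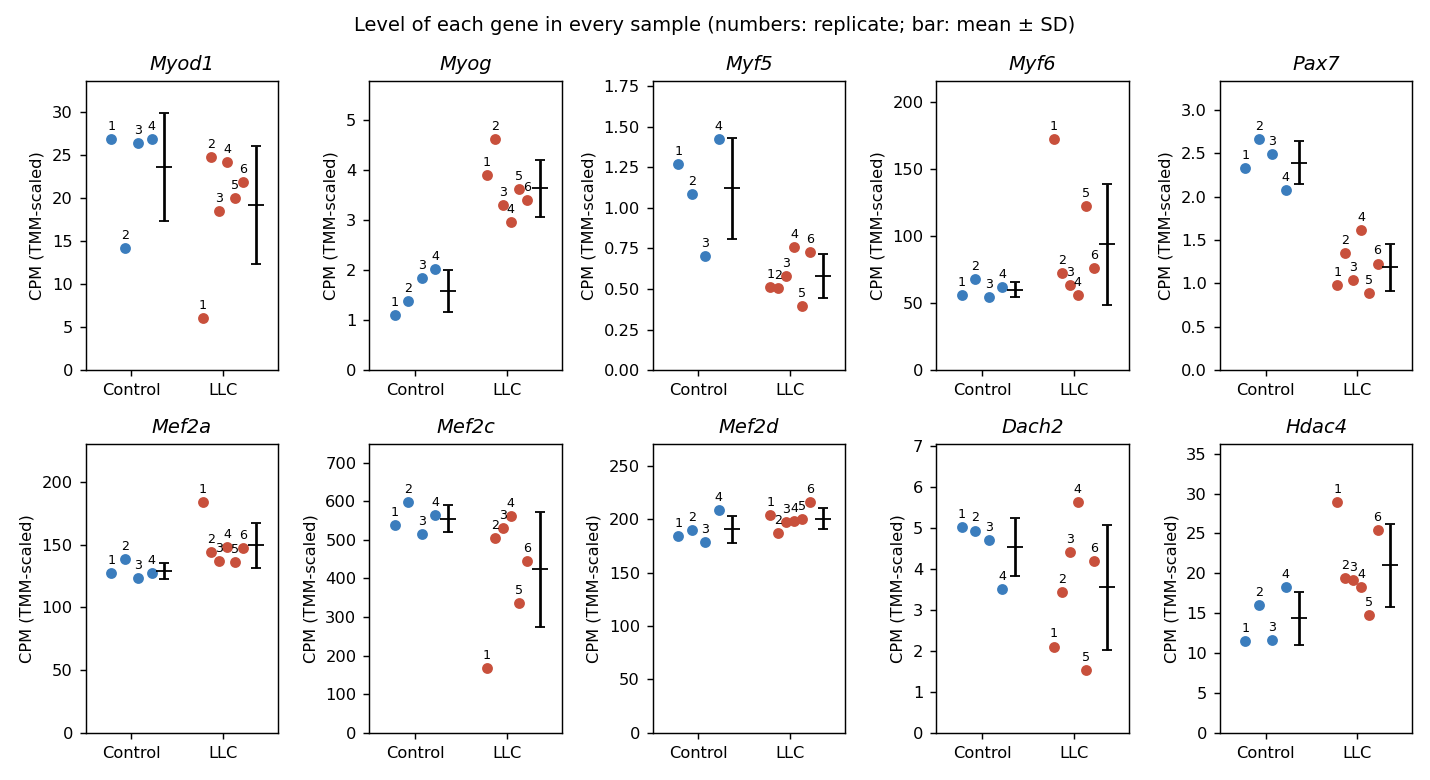
Level of each of the 10 genes in CPM (vertical axes, from 0) in the 4 control (blue) and 6 LLC (red) samples, numbered by replicate, with the mean ± SD in black. The groups do not overlap for Myog and Pax7, while LLC 1 lies far from the other LLC samples for Myod1 and Mef2a and is, with LLC 5 next to it, at the extreme for Myf6 and Mef2c.

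Pax7 (chr4:139737062-139833528, minus strand, GRCm38), the marker of satellite cells, fell without overlap between the groups. Its level was 2.33, 2.67, 2.49 and 2.08 CPM in Control 1 to 4. In LLC 1 to 6 it was 0.98, 1.36, 1.04, 1.61, 0.89 and 1.23 CPM. The highest LLC sample, LLC 4, lay below the lowest control, Control 4. The log2 fold change was -1.01 ± 0.18 (SE; adjusted p = 0.00626), with 38 to 54 counts per control library and 18 to 32 per LLC library, and it was -0.95 without LLC 1. In whole muscle, fewer cells of a type and less RNA per cell cannot be told apart.

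Of the other satellite cell markers few passed the threshold, and most estimates were below 0. Of 11 such genes, 10 were tested and 1, Notch3, a Notch receptor also present in vessel wall cells, fell (-0.99 ± 0.15; adjusted p = 0.0028), and none rose. Of the 10, 6 had an unadjusted p under 0.05 and 7 had a negative estimate, with a median log2 fold change of -0.43. DESeq2 also called Megf10 lower, limma voom Cxcr4, and neither called a marker higher. Megf10, a receptor of satellite cells, had the lowest estimate (-1.22; adjusted p = 0.0928), and Cxcr4, a chemokine receptor, stood at -0.72 (adjusted p = 0.0974). Vcam1, an adhesion molecule, Fgfr4, a growth factor receptor, and Chodl stood at -0.55, -0.46 and -0.41. Cdh15, the M-cadherin of satellite cells, stood at 0.07, Itga7, an integrin, at 0.10, Sdc4, a syndecan, at 0.01, and Spry1, an inhibitor of growth factor signals, at -0.04. These genes were named after their values were seen. The summed level of the 11 markers was 162 to 182 CPM in controls and 157 to 174 CPM in LLC samples, a sum carried by Itga7 (80.7 CPM on average in controls and 86.8 CPM in LLC samples) that says little of the markers at low levels.

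Markers of other cell types also differed between the groups. All 5 fibroblast markers fell, from summed levels of 237 to 304 CPM in controls to 46.8 to 80.1 CPM in LLC samples. All 5 neutrophil markers rose, from 0.689 to 1.88 CPM to 29.8 to 63.5 CPM. Of 5 macrophage markers, 4 were tested and Mrc1 fell, with sums over the 5 of 7.89 to 12.1 CPM in controls and 4.52 to 9.07 CPM in LLC samples. Csf1r stood at -0.73 (adjusted p = 0.0868), and DESeq2 and limma voom called it lower. C1qa stood at -0.505 (adjusted p = 0.305) and Cd68 at 0.50 (adjusted p = 0.449). Of 4 endothelial markers Kdr fell. Cdh5 (-0.37, adjusted p = 0.0323) and Tie1 (-0.35, adjusted p = 0.0392) were also lower, but by less than 1.5-fold. The groups did not overlap for these 3. The estimate for Pecam1 was above 0 (0.31, adjusted p = 0.0972). The 4 markers summed to 222 to 291 CPM in controls and 208 to 241 CPM in LLC samples. Of 3 smooth muscle and pericyte markers Rgs5 fell. The 3 markers summed to 363 to 407 CPM in controls and 212 to 301 CPM in LLC samples. The single genes named here for these cell types were chosen after their values were seen. The part of these cell types in the changes of Pax7, Myf5 or Myog was not tested.

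Myf5 (chr10:107482908-107486134, minus strand), an early factor of the muscle lineage, fell, and was per kilobase the lowest of the 4 myogenic regulatory factors. Its level was 1.27, 1.09, 0.70 and 1.42 CPM in Control 1 to 4 and 0.51, 0.51, 0.58, 0.76, 0.40 and 0.73 CPM in LLC 1 to 6. The groups overlapped, since Control 3 lay below LLC 4 and LLC 6, and 4 of 6 LLC samples lay below all controls. Myf5 fell by 0.94 ± 0.25 on the log2 scale (adjusted p = 0.0433), with 13 to 26 counts per control library and 8 to 15 per LLC library. This call was close to the threshold: it held without LLC 1 (-0.91) but was lost when Control 1, 2 or 4 or LLC 2, 3, 5 or 6 was left out, with log2 fold changes of -0.81 to -1.02 in those fits.

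Myod1 (chr7:46376474-46379099, plus strand), the other determination factor, did not pass the threshold. It stood at 26.9, 14.2, 26.4 and 26.9 CPM in Control 1 to 4, and in the LLC group at 6.02 CPM at the lowest (LLC 1), 20.95 at the median and 24.8 at the highest. One sample of each group, Control 2 and LLC 1, lay well below the rest, and the groups overlapped. Its log2 fold change was -0.30 with a 95% interval of -0.99 to 0.40 (adjusted p = 0.555), and -0.10 without LLC 1.

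Myog (chr1:134289989-134292548, plus strand), the differentiation factor, rose without overlap between the groups. The controls stood at 1.11, 1.38, 1.84 and 2.03 CPM. LLC 1 to 6 stood at 3.91, 4.63, 3.30, 2.97, 3.62 and 3.41 CPM. The lowest LLC sample, LLC 4, lay above the highest control, Control 4, and LLC 2 was the highest of all. The rise on the log2 scale was 1.19 ± 0.19 (adjusted p = 0.00336), on 21 to 37 counts per control library and 57 to 82 per LLC library. Without LLC 1 the rise was 1.18.

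Genes of muscle differentiation and fusion showed no common direction. Of 10 such genes, 8 were tested, and Mymk and Mymx, whose products fuse myoblasts, had too few counts. With edgeR none rose and 1 fell: Actc1, the cardiac actin that fetal and regenerating muscle also expresses. It went from 61.4, 67.3, 64.2 and 88.4 CPM in controls to between 4.78 and 28.1 CPM in LLC samples, a log2 fold change of -2.04 ± 0.38 (adjusted p = 0.00755). Myh3 and Myh8, the embryonic and perinatal myosins, had log2 fold changes of 0.07 and 0.22 with adjusted p of 0.827 and 0.307 (both genes chosen after their values were seen). The median of the 8 was 0.13, 5 had an unadjusted p under 0.05, and DESeq2 and limma voom each also called Cdkn1a, a cell cycle inhibitor named after its values were seen, higher.

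Myf6 (chr10:107492853-107494737, minus strand), the neighbour of Myf5 and per kilobase the most abundant of the 4 factors, varied widely among LLC samples and did not pass the threshold. The controls stood at 56.4, 67.8, 54.8 and 62.1 CPM. The LLC samples ran from 56.2 CPM (LLC 4) through a median of 74.3 to 173 CPM (LLC 1), with LLC 5 at 122 CPM. The groups overlapped, although 4 of 6 LLC samples lay above all controls. The coefficient of variation of its CPM was 47.9% in the LLC group, the highest of the 10 genes, and 9.78% in controls; on the log2 scale the SD in the LLC group was 0.62, below that of Myod1 (0.77), Dach2 (0.68) and Mef2c (0.66). The log2 fold change of 0.64 had a 95% interval of 0.01 to 1.27 and an adjusted p of 0.177, and it was 0.38 without LLC 1.

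**Figure D2:**
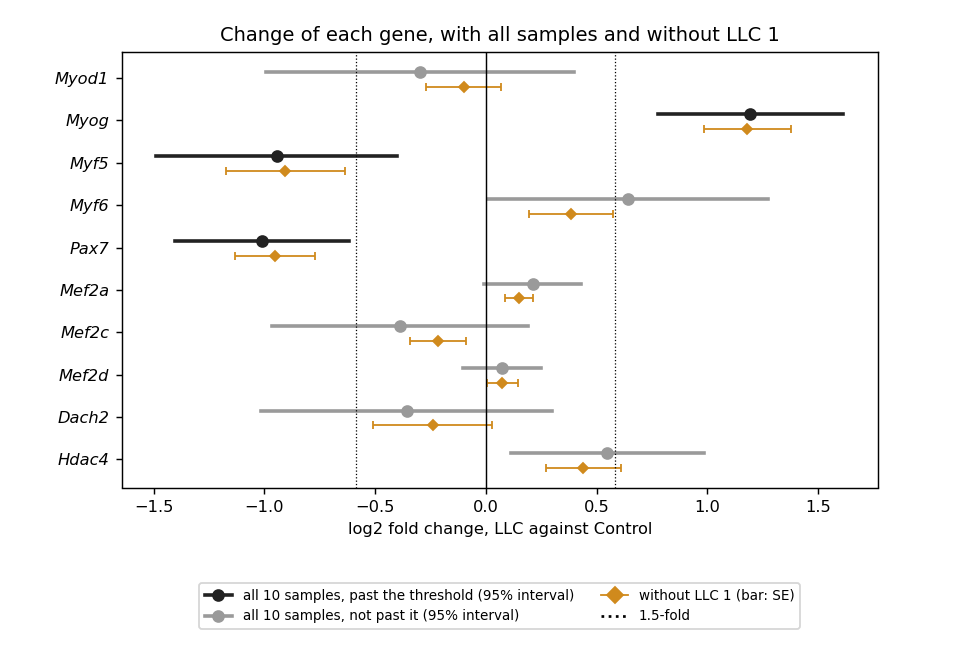
Log2 fold change of each gene (horizontal axis, LLC against control) from all 10 samples with its 95% interval (circles; black where past the threshold, grey where not) and without LLC 1 with its SE (orange diamonds); dotted lines mark 1.5-fold. Myog lies to the right of 0 and Pax7 and Myf5 to the left with and without LLC 1. All estimates but that of Mef2d move toward 0 when LLC 1 is left out, those of Myf6, Myod1 and Mef2c the most.

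Per kilobase of exon, the order of the 10 genes in control muscle was led by Myf6 at 47.7 ± 4.67 CPM per kb (SD, n = 4). Mef2c (35.3) and Mef2d (31.8) followed, then Myod1 (12.7) and Mef2a (8.79), then Myog (1.06), Hdac4 (0.909), Myf5 (0.538), Dach2 (0.461) and Pax7 (0.408). The ranges of Mef2c and Mef2d, of Myod1 and Mef2a, of Myog and Hdac4, and of Myf5, Dach2 and Pax7 as neighbours in that order overlapped. In LLC muscle Myf6 led at 74.4 ± 35.7 (SD, n = 6) and Mef2d (33.5) stood above Mef2c (27.0), with overlapping ranges. Myog (2.44) no longer overlapped Hdac4 (1.33), and Pax7 (0.202) was again the lowest, overlapping Myf5 (0.279). Exon length here covers all annotated isoforms, so levels of genes with long alternative exons are understated.

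Within the summed level per kilobase of the 4 factors, Myf6 made up 76.9% ± 5.8 (SD) in controls and 82.7% ± 7.79 in the LLC group. Its share reached 95.7% in LLC 1 and 87.9% in LLC 5. Myod1 took 20.5% ± 5.66 and 13.9% ± 6.89, with 2.26% in LLC 1. Myog took 1.71% ± 0.427 and 3.02% ± 0.869, and Myf5 0.863% ± 0.216 and 0.365% ± 0.173. These shares are descriptions of the same counts and were not tested.

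**Figure D3:**
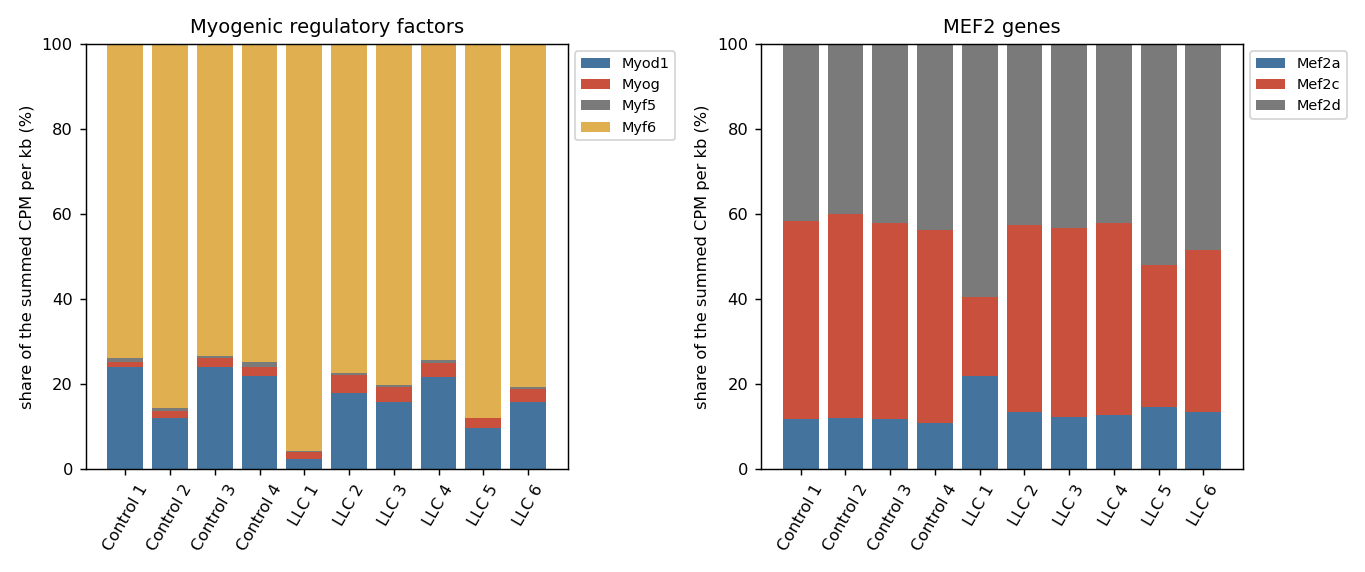
Share (%) of each gene in the summed CPM per kb of the 4 myogenic regulatory factors (left) and of the 3 MEF2 genes (right) in every sample, as stacked bars. Myf6 makes up 73.3% to 95.7% on the left, and on the right Mef2c takes 18.6% in LLC 1 and 33.4% in LLC 5, below its 45.3% to 48.1% in controls.

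None of the 3 MEF2 genes passed the threshold with edgeR, DESeq2 or limma voom, and none had an unadjusted p under 0.05 (edgeR). Mef2c (chr13:83504034-83667080, plus strand) stood at 539, 599, 516 and 565 CPM in controls and ran from 167 (LLC 1) through a median of 475 to 561 CPM (LLC 4) in the LLC group. LLC 1 and, less so, LLC 5 at 337 CPM lay low, and 4 of 6 LLC samples lay below all controls. Its change was -0.39 (log2) with a 95% interval of -0.97 to 0.19 (adjusted p = 0.346), and -0.22 without LLC 1. The coefficient of variation was 35.1% in the LLC group and 6.42% in controls.

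Mef2a (chr7:67231163-67372858, minus strand) stood at 128, 138, 123 and 127 CPM in controls and ran from 136 (LLC 5) through 145.5 at the median to 184 CPM (LLC 1) in the LLC group. Its groups overlapped, with 4 of 6 LLC samples above all controls. Its change was 0.21 (log2), with an interval of -0.01 to 0.43 (adjusted p = 0.194), and 0.15 without LLC 1. Its exons share 302 bases with Lysmd4 on the other strand (147 to 217 counts per library), and since the strand setting of the counting is not known the reads there cannot be assigned.

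Mef2d (chr3:88142372-88172086, plus strand) varied least of the 10 genes within the LLC group. It stood at 184, 190, 179 and 208 CPM in controls and ran from 187 through 199 to 216 CPM in the LLC group, with overlapping ranges. Its coefficient of variation was 4.86% in the LLC group and 6.63% in controls, where Mef2a (5.0%) and Mef2c (6.42%) varied less. The log2 fold change was 0.07 with an interval of -0.10 to 0.25 (adjusted p = 0.563), and 0.075 without LLC 1. A change of 1.5-fold in either direction lies outside that interval. Mef2d overlaps the antisense gene 1700113A16Rik by 531 bases (1 to 8 counts per library).

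Regulators and targets of MEF2 gave few calls. Of 25 regulators, 23 were tested, none passed the threshold with edgeR, 3 had an unadjusted p under 0.05, and the median log2 fold change was 0.01. Those with the smallest p were Hdac7, a class IIa histone deacetylase (-0.43 ± 0.14; adjusted p = 0.0843), and Sik1, a kinase that acts on these deacetylases (1.89 ± 0.62; adjusted p = 0.0901; 1.11 without LLC 1). Sik1 reached 96.1 CPM in LLC 1 against 4.44 to 11.5 CPM in controls, and it was the 1 regulator that DESeq2 and limma voom each called higher. Of 13 MEF2 target genes, all tested, none rose and 1 fell with edgeR (4 had an unadjusted p under 0.05): Myoz2, a Z-disc protein of slow fibres (-0.97 ± 0.23; adjusted p = 0.0284). DESeq2 called Myoz2 and Mb lower, limma voom Myoz2 and Hspb7, and neither called a target higher. Mb and Hspb7 were named after their values were seen. The edgeR estimate of Hspb7 was 0.36 with all samples (adjusted p = 0.589) and -0.62 without LLC 1 (adjusted p = 0.195). With all samples the edgeR estimate was below 0 for 10 of the 13 targets, with a median of -0.23. Slc2a4, named after its values were seen, had -0.58 (adjusted p = 0.0431), which is under 1.5-fold. Its groups did not overlap, at 553 to 587 CPM in controls and 295 to 479 CPM in LLC samples. Myoz2 ranged from 25.1 to 45.4 CPM in controls and from 11.99 to 26.2 CPM in LLC samples, and the groups overlapped through LLC 2. Its call was lost without Control 1, 2 or 4 or LLC 3, 5 or 6.

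Hdac4 (chr1:91928779-92195699, minus strand), the deacetylase that represses MEF2, did not pass the threshold. Its level was 11.5, 16.1, 11.6 and 18.2 CPM in controls and 14.8 (LLC 5) to 29.0 CPM (LLC 1) in the LLC group, with a median of 19.3. The groups overlapped and 4 of 6 LLC samples lay above all controls. Its change was 0.55 (log2) with an interval of 0.11 to 0.98 (adjusted p = 0.113), and it was 0.44 without LLC 1. With limma voom the change of Hdac4 was 0.52 (adjusted p = 0.023), under 1.5-fold, and with DESeq2 0.56 (adjusted p = 0.0655). The antisense gene Gm26720, which shares 3536 exonic bases with it, had 0 to 3 counts.

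Dach2 (chrX:113297510-113836386, plus strand), the repressor of Myog, stood at 5.03, 4.94, 4.70 and 3.51 CPM in controls. In the LLC group it ran from 1.54 CPM (LLC 5) through a median of 3.82 to 5.64 CPM (LLC 4), the highest of all samples. The groups overlapped in both directions. The log2 fold change was -0.36 with an interval of -1.01 to 0.30 (adjusted p = 0.445), and -0.24 without LLC 1.

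Genes of the HDAC4-DACH2-MYOG pathway, best known from denervated muscle, mostly had positive estimates, and how many passed depended on the tool. Of 12 genes, 10 were tested, 1 rose and 1 fell with edgeR against 5 and 1 with both DESeq2 and limma voom, and 9 of the 10 estimates were above 0 (median 0.80). At an unadjusted p under 0.05 there were 8 of the 10. Of all 12690 tested genes, 715 passed with edgeR, 1052 with DESeq2 and 990 with limma voom. Fbxo32, which encodes the ubiquitin ligase atrogin-1, rose from 376, 269, 367 and 385 CPM in controls to between 517 (LLC 4) and 3630 CPM (LLC 1), without overlap. Its log2 fold change was 2.03 ± 0.49 (adjusted p = 0.0307), and 1.51 without LLC 1. Dach1, the paralog of Dach2, fell from between 4.49 and 5.19 CPM to between 1.78 and 3.58 CPM (-0.83 ± 0.18; adjusted p = 0.0206), also without overlap. Both calls were lost in fits without single libraries: that of Fbxo32 without any 1 of the 4 controls or without LLC 5, and that of Dach1 without any 1 control or without LLC 6.

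The acetylcholine receptor and synapse genes of this list, known targets of myogenin, did not pass with edgeR. Chrna1, the receptor's alpha subunit, had a log2 fold change of 0.47 ± 0.12 (adjusted p = 0.042), which is under 1.5-fold. The subunit genes Chrnb1 and Chrnd had 0.60 (adjusted p = 0.112) and 0.17 (adjusted p = 0.601), and 0.44 and 0.23 without LLC 1. Musk, the receptor kinase of the neuromuscular junction, had 1.01 ± 0.37 (adjusted p = 0.117), and 0.63 without LLC 1, with 35.4 CPM in LLC 1 against 6.41 to 10.8 CPM in controls. Chrng, the fetal receptor subunit, had at most 3 counts in any library. Trim63, Runx1 and Gadd45a, genes raised in atrophying muscle, had log2 fold changes of 2.20, 2.32 and 2.40 with adjusted p of 0.0718, 0.0981 and 0.0607, and each was highest in LLC 1. Without LLC 1 their log2 fold changes were 1.46, 1.20 and 1.52. The groups did not overlap for Trim63 (156.7 to 195 CPM in controls, 211 CPM or more in LLC samples) or Gadd45a (6.90 to 8.20 against 13.2 CPM or more), and overlapped for Runx1. DESeq2 and limma voom called these 3 and Musk higher. These genes were named after their values were seen.

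**Figure D4:**
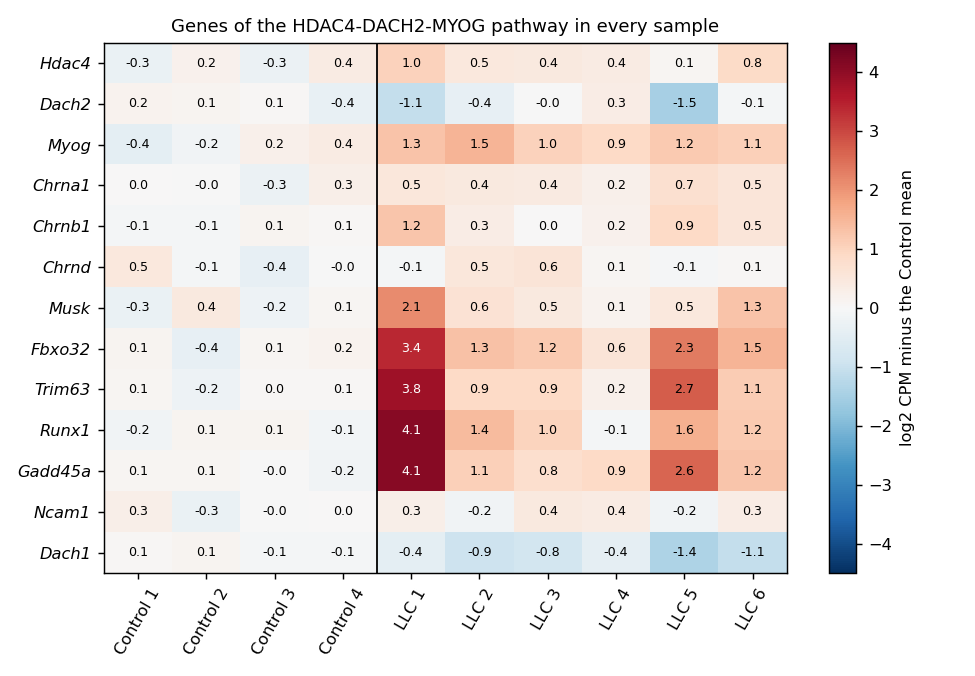
Log2 CPM minus the control mean (color and printed value) of Hdac4, Dach2, Myog and the 10 tested genes of the pathway list (rows) in every sample (columns; the line separates control from LLC). Myog is above the control mean in all 6 LLC samples at a like level, whereas Musk, Fbxo32, Trim63, Runx1 and Gadd45a are highest in LLC 1.

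Partners, inhibitors and upstream factors of the family gave few calls. Of 18 helix-loop-helix partners and inhibitors, 13 were tested, none rose and 1 fell with edgeR, DESeq2 and limma voom (3 had an unadjusted p under 0.05): Heyl, a Notch-responsive repressor, went from between 8.05 and 10.2 CPM to between 3.30 and 4.86 CPM (-1.30 ± 0.13; adjusted p = 0.000197). The median of the 13 was -0.004. Of 11 upstream factors, all tested, none passed with edgeR and 2 had an unadjusted p under 0.05. Those with the smallest p were Eya2, a co-activator of homeobox factors (-1.44 ± 0.40; adjusted p = 0.0515), whose groups did not overlap and which the other tools called lower, and Eya4 of the same family (0.49 ± 0.15; adjusted p = 0.072). Eya2 was near the floor, at 0.0559 to 0.514 CPM in LLC samples. Over the 100 genes of all 7 lists, 88 were tested, 1 rose and 5 fell, with a median of -0.01. When LLC 1 was left out 13 passed, but 3 when Control 1, 2 or 4 was. Of all tested genes, 715 passed with all samples, 966 without LLC 1, and 417, 438 and 418 without Control 1, 2 and 4.

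**Figure D5:**
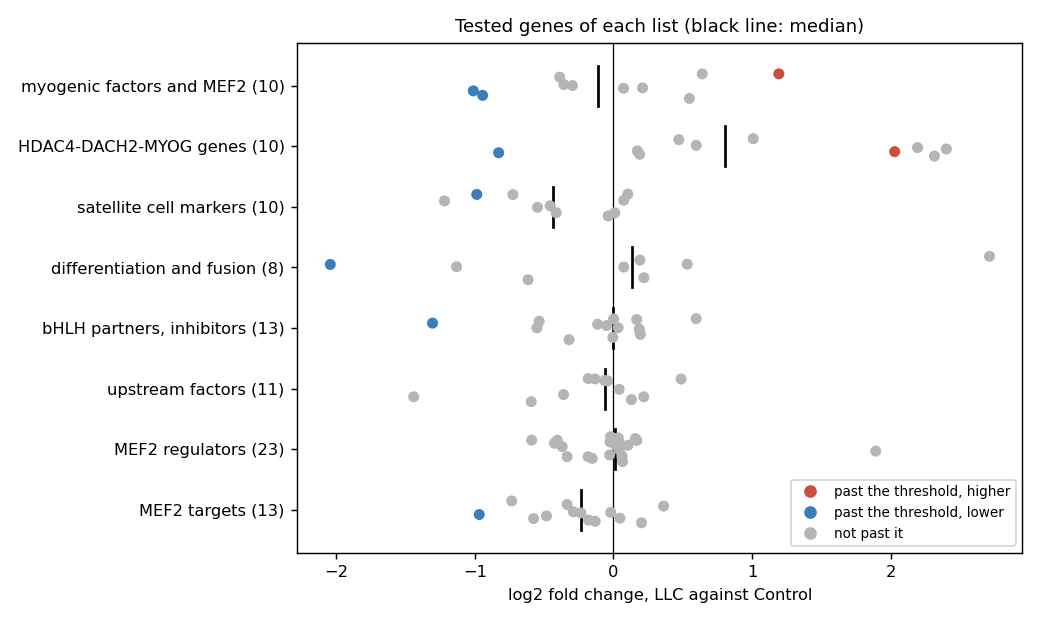
Log2 fold change (horizontal axis) of every tested gene of the 10-gene set and of the 7 pathway lists, 1 point a gene, with the number tested in parentheses, the median as a black line, and calls in red (higher) or blue (lower). Calls number 3 in the set and at most 2 in any list, and medians run from -0.43 to 0.80.

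The genes whose pattern was most like that of Myog and Myf6 were sought among tested genes with a mean log2 CPM of at least 1, by Pearson's r over the 10 samples after each group's mean was subtracted. For Myog these were Igfn1 (r = 0.892; 0.890 without LLC 1), Col18a1 (0.853; 0.894) and Col7a1 (0.853; 0.950). For Myf6 they were Psma1, a proteasome subunit (0.989; 0.972), Csnk1d, a casein kinase (0.985; 0.963), and Eif4ebp1, an inhibitor of translation initiation (0.985; 0.961). These correlations are the highest over all such genes and are given as descriptions; the points share libraries and their depth, and Myog rests on few counts. They do not reflect the change between the groups. With edgeR Col18a1 fell (log2 fold change -0.70, adjusted p = 0.0194). Igfn1 (0.34), Col7a1 (0.06), Psma1 (0.37), Csnk1d (0.27) and Eif4ebp1 (1.67) did not pass the threshold.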

How the data were processed

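Total RNA of the tibialis anterior of 4 control and 6 LLC mice was sequenced as stranded, paired-end libraries in 1 lane. The authors deposited raw integer counts of reads per gene, 1 library per mouse; their notes name TopHat, HTSeq and the build mm10. The methods describe RefSeq genes and default HTSeq settings, the files list Ensembl identifiers, and the strand setting is not given in the sources used here, so counts where genes overlap on opposite strands are uncertain. Groups and replicate numbers came from the sample titles. Symbols matched 37607 of 39179 identifiers; coordinates and exon lengths came from GENCODE M21 (GRCm38).

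Genes with enough counts (edgeR's filterByExpr, minimum count 10) were fitted in edgeR 4.0.16 (R 4.3.3) with TMM factors, glmQLFit and glmQLFTest, group as the only term, and Benjamini-Hochberg adjustment over all tested genes. CPM, log2 CPM (prior count 2), intervals and shares were computed from the same counts. Alternatives were other scalings and filters, DESeq2 1.42.0, limma 3.58.1 (voom with quality weights), robust dispersion, other thresholds, a replicate block and each sample left out. The procedure was tested on simulated data. Replicates are separate mice, and floors cover counting error only, since reads without molecular identifiers are not independent molecules.

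The members and lists were chosen with earlier results of these data known. The text names all 10 members, pathway genes past the threshold (in a list with none, the 2 with the smallest p), and the 3 genes most like Myog and Myf6; others named are said to be chosen after their values were seen. Markers of other cell types were counted per list. One marker list is not reported here. Small RNA libraries were not analysed here.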

Additional observations from a re-analysis of the deposited data

Results flagged for a closer look

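Within the groups, 20 sets of values (10 genes, 2 groups) were examined for a sample far from the others, measured as its gap to the nearest sample divided by the range of the group. Of these, 3 values passed the 95% critical value of Dixon's test, where chance gives 1 in 20. Myod1 was lowest in Control 2 (14.2 CPM; gap ratio 0.964) and, in the LLC group, lowest in LLC 1 (6.02 CPM; 0.664). Mef2a was highest in LLC 1 (184 CPM; 0.755). Both genes were outside the threshold with and without LLC 1.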

How the results depend on the processing

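Over 209 alternative values of the 10 log2 fold changes, none changed sign: 197 stayed on their side of the threshold, 11 lost a call and 1 (Myf6, unadjusted p) gained one. The 209 include the unadjusted p and the missing fold bound, which reused the main fit. Values under those settings could not change sign or lose a call. Myog and Pax7 lost theirs under the replicate block alone, with adjusted p from 2.24e-06 to 0.131 and from 0.000341 to 0.158 over the alternatives. Myf5 lost its call in 9 of 20 alternatives (adjusted p 0.0293 to 0.22): without a filter, under the block and in 7 fits that left out 1 sample; with 10 counts required in every sample it was not tested.

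The count of the 10 genes past the threshold was 2 to 3 when 1 sample was left out and 0 with the replicate number as a block. Of all genes, 715 passed, against 1052 with DESeq2, 990 with limma voom and 1572 at an unadjusted p of 0.05. With at least 10 counts in every sample 475 passed, under the block 112, and without 1 sample 415 to 966 (966 without LLC 1). Of the pathway genes, 6 passed, against 15 with DESeq2, 15 with limma voom, 19 at an unadjusted p, 2 under the block, and 3 to 13 without 1 sample. The cause was not tested. Col7a1 (log2 fold change 0.06, not called) changed sign with voom (-0.004), and ran from -0.039 to 0.198 without 1 sample.

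Same-numbered samples did not deviate together (correlations -0.029, 0.009, -0.081 and 0.126 for replicates 1 to 4), and 2 of 8 samples correlated best with their own number. The block leaves LLC 5 and LLC 6 without a partner, and its 112 calls were all among the 715. Scalings moved the median of all genes by -0.0344 to 0.0105 (log2). Low counts, 8 to 82 per library, limit the precision of Myog, Myf5 and Pax7.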

Other observations

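Leaving out LLC 1 raised the number of pathway genes past the threshold from 6 to 13, 6 of them higher and 7 lower in the LLC group. In the same fit 966 of all 12624 tested genes passed, against 715 of 12690 with all samples. The genes below were named after their values were seen. Those that passed in that fit and not with all samples were Trim63, Runx1, Gadd45a, Sik1, Cdkn1a, Mb and Ccnd1. Cdkn1a, the cell cycle inhibitor p21, had a log2 fold change of 2.71 with all samples and 1.47 without LLC 1. Ccnd1, the gene of cyclin D1, had -1.13 and -0.91. Mb, the myoglobin gene and a MEF2 target, had -0.73 and -0.59, and its groups did not overlap (3802 to 4254 CPM in controls).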
